A study of Mus musculus and Homo sapiens with 9 samples.

Results

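The 9 genes described here encode interferon factors and parts of innate sensing: Irf1, Irf3, Irf7, Irf9, Stat2, Mavs, Ifih1, Tbk1 and B2m. They were taken by name out of 21887 protein-coding mouse genes, and each was asked for a peak of thymine DNA glycosylase (TDG) and of p53 in chromatin immunoprecipitation and sequencing (ChIP-seq). TDG, a DNA repair glycosylase, cuts out thymine mispaired with guanine as well as 5-formylcytosine and 5-carboxylcytosine, the oxidised forms of methylcytosine. p53 is a transcription factor activated by stress. Both lists came from B16, a mouse melanoma line, of genotype Tdg HA knockin, in which TDG is located through an HA tag. One library was made with the HA antibody and 1 with the p53 antibody, and no treatment is given for either. The 7 other samples, which include input and IgG libraries and the controls lacking the tag (WT) or p53 (Trp53 KO), were not analysed here. Whether a peak depends on the tag or on p53 was therefore not tested. Each list stands for 1 library with no replicate, so the values below are descriptions of those libraries and carry no test.

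Cells detect viral RNA through sensors such as MDA5, the product of Ifih1, which signals through the mitochondrial adaptor MAVS to the kinase TBK1. TBK1 phosphorylates IRF3 and IRF7, which then switch on type I interferon genes. Secreted interferon acts through its receptor on a complex that holds STAT2 and IRF9 and binds interferon-stimulated response elements (ISREs). Interferon-gamma acts on gamma-activated sites (GAS), and IRF1 is a classic target of that route. B2m encodes the light chain of MHC class I, which presents peptides to T cells.

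TDG was found at 2 of the 9 genes, Irf1 and Irf3, with the summit just before the annotated start in both. No TDG peak lay at Irf7, Irf9, Stat2, Mavs, Ifih1, Tbk1 or B2m. A gene counted when a summit lay inside it or within 1 kb of either end, and by that rule 14.8% of all protein-coding genes carried TDG (3237 genes). The share among the 9 genes was 22.2%, with an exact binomial 95% interval of 2.81 to 60.0%, which holds the background share. That interval takes the genes as independent draws, which genes picked by name are not, so it is no test of the list. No p53 peak lay within 10 kb of any of the 9 genes, where 0.489% of protein-coding genes had one. The 2 carriers were 45 and 110 bases from the nearest TDG summit, and the nearest gene left outside the rule, Stat2, was 10571 bases from one.

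The sequences before the starts of 4 genes show the range of CpG content over which TDG was present or not. CpG is the site of cytosine methylation, whose oxidised forms are TDG substrates. Irf1 and Irf3 carried TDG, whereas Tbk1 and Irf7 did not and had the most and the fewest CpGs of the 9 genes before the outermost annotated start. Irf1 and Irf9 each have a second annotated start further in, with 35 and 1 CpGs before it. Each sequence is the 250 bases before the outermost annotated start, 5′ to 3′ on the gene's own strand, from RefSeq (build GRCm38.p6, the assembly behind mm10), with every CpG in capitals. All 9 genes had an entry there. They lie at chr11:53769764-53770013 (plus strand) for Irf1, chr7:44997398-44997647 (plus) for Irf3, chr10:121586795-121587044 (minus) for Tbk1 and chr7:141266425-141266674 (minus) for Irf7. The only start annotated for Irf7 lies inside the gene, whose outer end is at 141266499. The last part of its sequence is thus within the gene, and its CpG count belongs to that start.
Irf1: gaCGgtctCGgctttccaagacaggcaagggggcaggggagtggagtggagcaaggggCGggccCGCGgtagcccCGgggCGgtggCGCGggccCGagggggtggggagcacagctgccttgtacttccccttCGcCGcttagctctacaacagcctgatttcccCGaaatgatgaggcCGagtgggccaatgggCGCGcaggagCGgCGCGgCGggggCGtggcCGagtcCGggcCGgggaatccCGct
Irf3: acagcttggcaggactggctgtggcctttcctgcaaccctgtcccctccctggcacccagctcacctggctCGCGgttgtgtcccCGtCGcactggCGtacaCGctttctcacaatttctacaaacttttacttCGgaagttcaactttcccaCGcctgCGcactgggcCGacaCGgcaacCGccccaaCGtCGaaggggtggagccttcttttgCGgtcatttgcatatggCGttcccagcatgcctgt
Tbk1: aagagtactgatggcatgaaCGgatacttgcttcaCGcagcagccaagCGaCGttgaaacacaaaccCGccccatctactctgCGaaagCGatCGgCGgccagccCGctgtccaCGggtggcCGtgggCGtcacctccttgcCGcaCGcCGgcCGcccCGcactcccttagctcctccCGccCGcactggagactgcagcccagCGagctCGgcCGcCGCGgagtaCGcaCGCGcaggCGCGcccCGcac
Irf7: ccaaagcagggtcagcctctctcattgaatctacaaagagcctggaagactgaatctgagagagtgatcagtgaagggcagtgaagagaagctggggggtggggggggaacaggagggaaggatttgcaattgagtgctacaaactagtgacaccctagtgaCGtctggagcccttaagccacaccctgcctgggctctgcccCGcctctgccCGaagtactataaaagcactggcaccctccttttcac

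At Irf1 (gene ID 16362, chromosome 11, 53770014 to 53778374) the TDG peak ran from 53769713 to 53770239, from 301 bases before the start to 225 past it. Its summit lay 110 bases before the start, within the printed sequence. The authors' fold enrichment, the summit over the local background, was 5.37 with a −log10 q of 8.60. It rested on 28 reads at the summit, recovered from the deposited fold and p, over a local background of 4.00 scaled reads (each read counts as 0.924). The counting error of those reads (exact Poisson 95% interval 18.6 to 40.5) spans folds of 3.64 to 7.68. Among all 3410 TDG peaks, 36.1% had a lower fold and 52.4% a lower −log10 q, so the peak was below the middle of the list by fold and near it by q. No other annotated gene lay within 1 kb of this summit, and Irf1 is thus the only gene the peak can be assigned to by this rule.

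At Irf3 (gene ID 54131, chromosome 7, 44997648 to 45002848) the peak ran from 44997372 to 44997899, with the summit 45 bases before the start. Its fold enrichment was 6.25 with a −log10 q of 9.03, on 23 reads over the genome-wide background of 2.56 scaled reads. The counting interval of 14.6 to 34.5 reads spans folds of 4.07 to 9.24. A lower fold was found for 60.6% of TDG peaks. Irf3 thus had fewer summit reads than Irf1 but a higher fold, because the local background was lower, and the counting intervals of the 2 folds overlapped widely. The peaks were almost equally wide, 527 bases at Irf1 and 528 at Irf3, against a median of 420 bases over the list.

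The Irf3 peak is shared with a neighbour. Bcl2l12, a gene of the BCL2 family, starts 10 bases from Irf3 on the opposite strand (44991222 to 44997638), and the TDG summit lay 35 bases inside it. The list cannot tell which of the 2 divergent starts the peak belongs to.

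**Figure D1:**
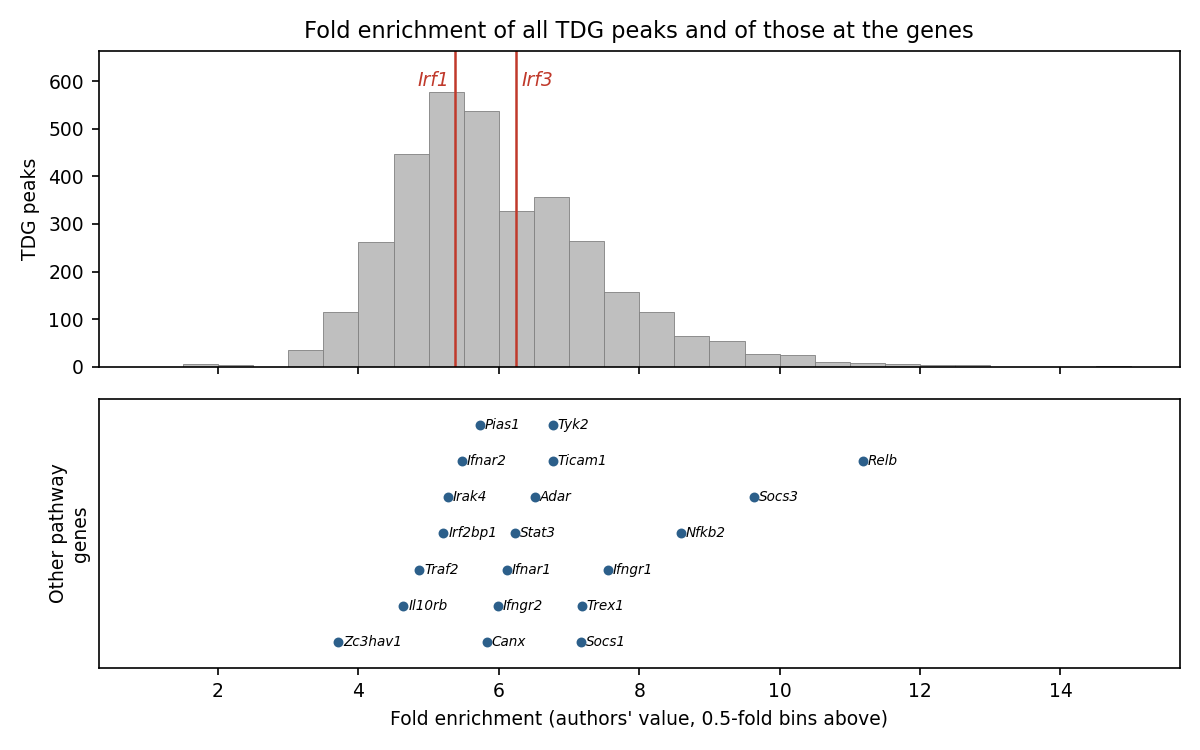
The upper panel counts all TDG peaks by fold enrichment in bins of 0.5-fold, with red lines at the peaks of Irf1 (5.37) and Irf3 (6.25). The lower panel places the highest TDG peak of each of 20 other pathway genes on the same axis, at arbitrary heights, from Zc3hav1 (3.71) to Relb (11.19). The highest peak of the list, at Tdg itself, lies beyond the axis.

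The 7 genes without TDG were 4 with a TDG summit within 100 kb and 3 with none. Stat2 (chromosome 10, 128270498 to 128292853) lay 10571 bases from a summit that sat 91 bases inside Pan2, a deadenylase subunit gene (5.73-fold). Irf9 (chromosome 14, 55603985 to 55610030) lay 12445 bases from one beside Rnf31, which encodes the ubiquitin ligase HOIP (5.28-fold, 173 bases from the gene). Rnf31 ends 311 bases before Irf9 starts, and the TDG peak was at the far end of Rnf31. That peak also counted for Psme2 (55587440 to 55591101), on the opposite strand from Rnf31. Mavs (chromosome 2, 131234063 to 131248025) stood between 2 peaks, one 265 bases from Ap5s1 on one side (6.77-fold) and one 398 bases inside Pank2 on the other (5.73-fold, 14381 bases from Mavs). Irf7 (chromosome 7, 141263183 to 141266499) had its nearest summit 47357 bases away, beside Lmntd2 (6.77-fold). Each of these summits was less than 1 kb from the end of another gene. For Irf9 and Mavs that gene was among the nearest neighbours, whereas the summits nearest to Stat2 and Irf7 lay beyond Il23a and Phrf1, which carried no TDG.

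Ifih1, Tbk1 and B2m had no TDG summit within 100 kb, as was the case for 58.7% of protein-coding genes. The nearest lay 119076 bases from B2m (chromosome 2, 122147687 to 122153082), 31 bases from an end of Eif3j1 (7.29-fold), and 510462 bases from Tbk1 (chromosome 10, 121546455 to 121586794). Ifih1 (chromosome 2, 62595618 to 62646255) stood farthest from any, 3187817 bases, and 91.2% of protein-coding genes were nearer to a TDG summit. Over all protein-coding genes the median distance was 175162 bases. B2m was nearer to a summit than that median, and Tbk1 and Ifih1 were farther from one.

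Irf3 was at the other extreme, with 7 TDG summits within 100 kb. Only 1.22% of protein-coding genes had as many. Besides its own peak these lay near Ap2a1 (8.59-fold), Prmt1 (6.25-fold), Scaf1 (5.10-fold), Rras (9.24-fold), Prrg2 (5.93-fold) and Rcn3 (4.44-fold). The Rras peak, 14782 bases from Irf3, was the strongest near any of the 9 genes. Irf1 had 3 within 100 kb. Its other 2 were weaker (4.49-fold and 3.71-fold, 19 reads each) and lay 12445 bases from Il5 and 18457 bases from Irf1 itself, the latter inside the noncoding gene Gm12216.

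**Figure D2:**
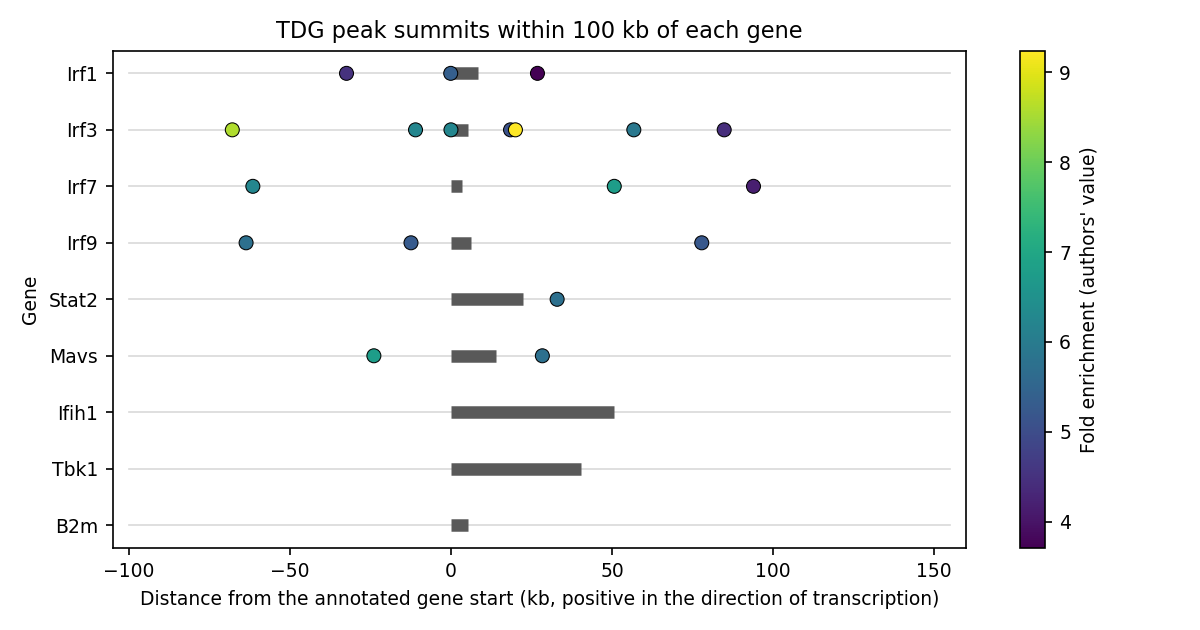
Each row is 1 gene, drawn as a grey bar from the outer end of the gene on its start side at 0, in the direction of transcription, with distance in kb. Points are TDG summits within 100 kb of the gene, coloured by the authors' fold enrichment. Irf1 and Irf3 have a point at 0, Irf7, Irf9, Stat2 and Mavs have points to the side only, and Ifih1, Tbk1 and B2m have none.

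A gene missing from the list may still hold TDG. At the genome-wide background the weakest TDG peak had 15 reads at its summit, and sites under the calling threshold, which is not stated, are not listed. The density of calls also differed between chromosomes. TDG was at 24.3% of the genes on chromosome 11, which holds Irf1, and 13.2% on chromosome 7, which holds Irf3 and Irf7. It was at 13.3% on chromosome 10 (Stat2, Tbk1), 12.5% on chromosome 2 (Mavs, Ifih1, B2m) and 3.29% on chromosome 14 (Irf9). The part of chromosome position in these calls was not tested.

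Over all genes, 13.6% of those with an annotated start had a TDG summit within 1 kb of one, and this share varied with the CpG count of the 250 bases before the start, counted at the outermost start, over whose range the 9 genes are spread. Of the protein-coding genes with 0 to 4 CpGs, 1.39% had a TDG summit within 1 kb of a start. The share rose to 7.69% at 5 to 9, 18.1% at 10 to 14, 24.2% at 15 to 19 and 29.9% at 20 to 24 CpGs. It was 28.6% at 25 to 29 and 21.2% at 30 or more. Irf7 with 3 CpGs, Irf9 with 7 and B2m with 8 were in the bins where TDG was uncommon. Ifih1 had 11, Stat2 14 and Mavs 15, and none of them carried TDG, although Mavs had nearly as many as Irf3 with 16. Irf1 had 25 before its outermost start, where the TDG summit lay, and 35 before its second start. Tbk1 had 31, more than either carrier at the start with the TDG summit, with an observed-to-expected CpG ratio of 1.09 against 0.823 at Irf1 and 0.766 at Irf3. The CpG count before the outermost start therefore did not separate the carriers from the others among these 9 genes.

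**Figure D3:**
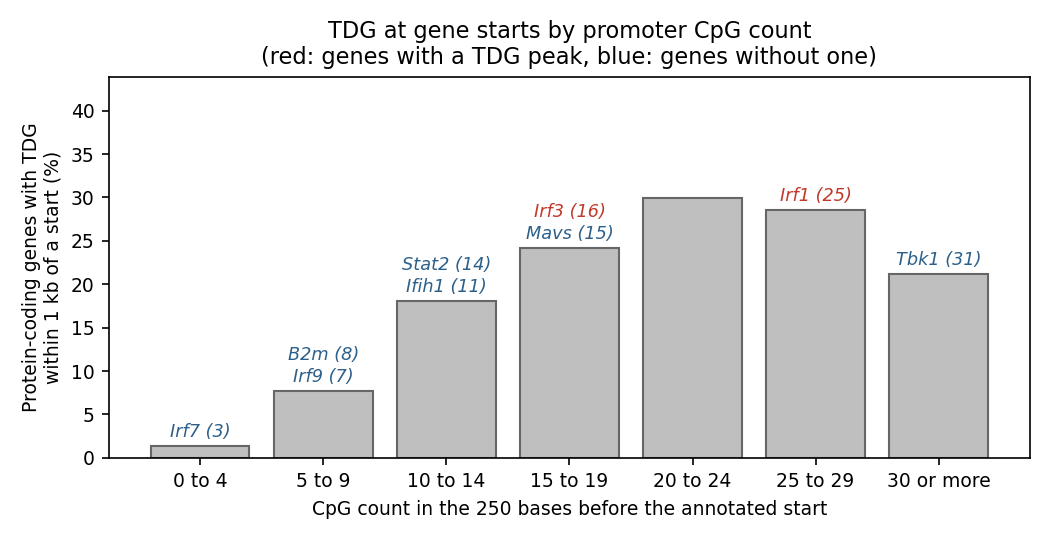
Bars give the percent of protein-coding genes with a TDG summit within 1 kb of an annotated start, by CpG count in the 250 bases before the start. Gene names stand above their bin with their own count in brackets, red with TDG (Irf1, Irf3) and blue without. Tbk1 is the gene without TDG in the highest bin (31 CpGs).

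Letter matches to response elements of the interferon pathway were found before 3 of the 9 starts. A search of both strands for the GAS pattern TTCNNNGAA matched Irf1 alone, 90 to 82 bases before the start. The first base of that match is 20 bases from the TDG summit, a distance shorter than the sheared fragments of about 300 bases. A search for the ISRE core (GAAA, any 2 bases, then GAAA) matched Stat2, 222 to 213 bases before the start, and B2m, 139 to 130 bases before it. Over 21263 windows of protein-coding genes, 6.58% held the GAS pattern and 2.96% the ISRE core. Ifih1 had an ISRE core match 32 to 41 bases past its start, outside the window. The stretches around the matches before the starts are shown with the match in capitals, at chr11:53769904-53769952 for Irf1, chr10:128270256-128270305 for Stat2 and chr2:122147528-122147577 for B2m, all on the plus strand.
Irf1 GAS: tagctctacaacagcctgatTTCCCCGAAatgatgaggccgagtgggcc
Stat2 ISRE: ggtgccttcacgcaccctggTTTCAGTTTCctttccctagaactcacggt
B2m ISRE: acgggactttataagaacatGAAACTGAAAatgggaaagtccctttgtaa
The GAS match lay under the TDG peak of Irf1. Stat2 and B2m had no TDG peak, so their ISRE matches could not lie under one, and the 2 elements cannot be compared. These are matches of letters, and no factor's binding to them was measured. Wholly within the 250 bases before the outermost starts of the 9 genes there was no match to the cyclic AMP response element TGACGTCA (1.92% of windows), the ETS pattern CCGGAAG (8.98%), the E-box CACGTG (6.63%), the NRF1 palindrome (1.07%) or the p53 half-site (6.31%). Outside that limit, an ETS match ran across the start of Ifih1. Tbk1 had an ETS match 34 to 40 bases and an E-box match 5 to 10 bases past its start. The SP box GGGCGG, present in 42.6% of windows, was found before Irf1, Irf3, Stat2, Mavs and Tbk1. It overlapped neither the GAS nor the ISRE matches.

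The nearest p53 peak to any of them lay 463730 bases from Irf3, at the apoptosis gene Bax (17.2-fold). Irf7 was 1.79 Mb and Irf1 2.99 Mb from one, Tbk1 3.83 Mb, Mavs 4.10 Mb, B2m 4.98 Mb, Ifih1 9.64 Mb and Stat2 10.55 Mb. Chromosome 14, with Irf9, had no p53 peak in the list. The median over protein-coding genes on chromosomes with a p53 peak was 5781699 bases, in a list of 126 peaks, and of the 9 genes only Ifih1 and Stat2 had a longer distance on such a chromosome. Neither Irf1 nor Irf3 shared its TDG site with p53.

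The wider pathway was described through 100 other genes in 9 roles. TDG was at 20 of them (20%, exact 95% interval 12.7 to 29.2%), beside the 14.8% of all protein-coding genes, which lies inside that interval. This interval and those given by role below also take the genes as independent draws, and they are no tests of the roles. For 18 of the 20 the summit was within 1 kb of an annotated start, and Relb and Il10rb, which had none in the table used, were the exceptions. The highest fold per gene had a median of 6.17, beside a median of 5.74 over all TDG peaks. By fold, the nearest of these genes to Irf1 were Ifnar2 (5.47-fold) and Irak4 (5.27-fold), and the nearest to Irf3 were Stat3 (6.23-fold) and Ifnar1 (6.11-fold).

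Receptors and JAK-STAT genes made up 10 of the 20 genes with TDG. Of 7 interferon and receptor genes, 5 had TDG (71.4%, exact 95% interval 29 to 96.3%, beside 14.8% of all protein-coding genes), namely Ifnar1 and Ifnar2, the subunits of the type I receptor, Ifngr1 (7.55-fold) and Ifngr2 (5.99-fold), those of the interferon-gamma receptor, and Il10rb (4.64-fold). Of these, 4 lie close together on chromosome 16, from the start of Ifnar2 at 91372783 to the end of Ifngr2 at 91564007. On that chromosome 26.8% of genes carried TDG, and the peak of Il10rb also counted for Ifnar2. These 4 genes are thus not independent, and the interval, which takes them as such, cannot be set against the 14.8%. Ifnb1 and Ifnlr1 had none. Of 9 JAK-STAT genes, 5 had TDG (55.6%, interval 21.2 to 86.3%, beside the same 14.8%). Tyk2 (6.77-fold) encodes a kinase of the type I receptor, Stat3 a transcription factor, and Socs3 (9.63-fold), Socs1 (7.17-fold) and Pias1 (5.73-fold) encode inhibitors of the route. Jak1, Jak2, Usp18 and Ptpn2 had none by the rule, although a summit lay 1275 bases from Usp18.

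In the remaining roles the shares ran from 4.55 to 33.3%, beside 14.8% of all protein-coding genes. In NF-kappaB, 2 of 6 genes had TDG (33.3%), Relb (11.19-fold, 42 reads) and Nfkb2 (8.59-fold), which encode the paired subunits of the noncanonical route. Among adaptors and kinases 3 of 16 had it (18.8%), Ticam1 (6.77-fold), the adaptor of TLR3, Irak4 (5.27-fold) and Traf2 (4.87-fold). DNA sensing had 1 of 6 (16.7%), Trex1 (7.18-fold), an exonuclease that clears cytosolic DNA. RNA sensing had 1 of 12 (8.33%), the RNA editor Adar (6.51-fold). The other interferon regulatory factors and their binding partners had 1 of 8 (12.5%), Irf2bp1 (5.21-fold). Antigen presentation, beside B2m, had 1 of 14 (7.14%), the chaperone Canx (5.83-fold). Of 22 interferon-stimulated genes only Zc3hav1 carried TDG (4.55%, exact 95% interval 0.115 to 22.8%, which holds the 14.8% of all protein-coding genes). Its fold, 3.71, was the lowest of the set, over a local background of 5.00 scaled reads. Just outside the rule, summits lay 1531 bases from Isg15, 1232 from Myd88 and 1629 from Traf3. The interferon-stimulated genes also had the lowest median CpG count, 4, against 10 for the 17492 protein-coding genes with an annotated start. Genes without an annotated start, Relb among them, have no CpG count and are left out of the medians by role. The median was 8 for DNA sensing, 8.5 for RNA sensing, 11.5 for antigen presentation and 12.5 for interferons and receptors. It was 13.5 for adaptors and kinases, 17 for the other interferon regulatory factors, 19 for JAK-STAT and 21.5 for NF-kappaB. The part of CpG count in the differences between roles was not tested. p53 lay within 10 kb of 1 of the 100 genes, beside 0.489% of all protein-coding genes. That gene was Irf2bp2 (15.25-fold), at 9497 bases, just inside the limit.

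**Figure D4:**
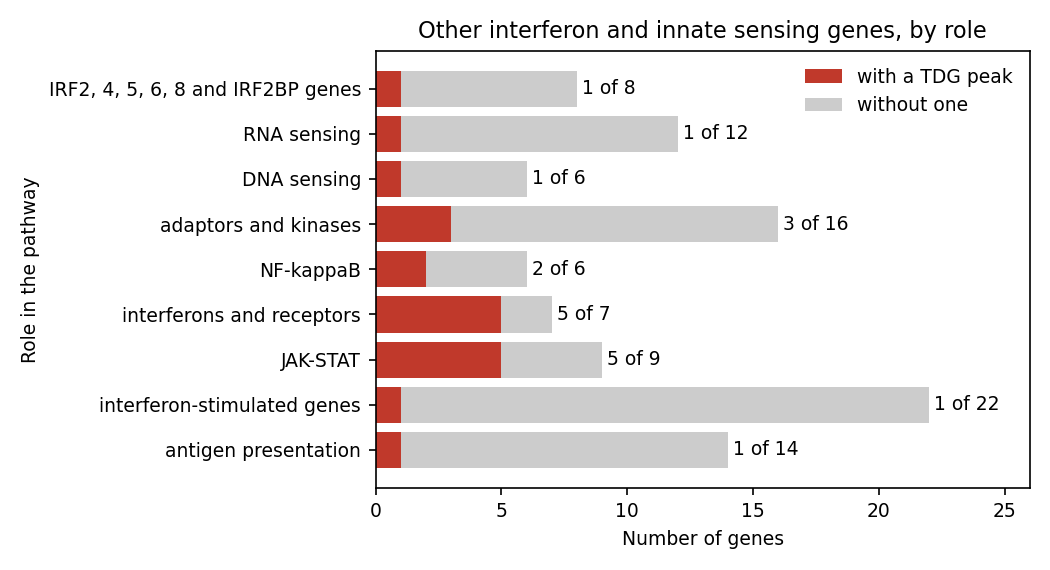
Bars give the number of other pathway genes in each role, red for those with a TDG summit in the gene or within 1 kb of an end and grey for those without. Interferon and receptor genes (5 of 7) and JAK-STAT genes (5 of 9) have the longest red bars, and interferon-stimulated genes have 1 of 22.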

How the data were processed

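The submitters' processing notes name Trim Galore, Bowtie2, Picard, deepTools, MACS2, ChIPseeker and mm10, without versions or roles. Per the labels' protocols, fixation took 10 min in 1% formaldehyde and shearing left fragments of about 300 bases. The authors deposited 3410 TDG and 126 p53 peaks in the narrowPeak layout. The deposited fold enrichment is the ratio of summit to local background as the peak caller computes it, and the −log10 p and −log10 q belong to the summit, per the narrowPeak layout. In all 3410 and 126 peaks the deposited score was the −log10 q times 10, rounded down. Control, calling threshold and pooling were not stated in those notes. The highest TDG peak, 28.9-fold, lay at the tagged gene Tdg. The lists give no library totals.

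Reads at the summit and the local background were recovered by solving the MACS2 formulas for fold, (summit + 1)/(background + 1), and Poisson p together. With reads scaled by 0.924 for TDG and 0.792 for p53, 99.9% and 95.2% of summits came out whole within 0.05 reads. The scale was chosen to make that share high, so the share is no independent check. Summit reads are given before that scaling and backgrounds after it. The recovery was tested on data simulated from the same formulas, which cannot show that the formulas hold for the deposited lists. The intervals of the recovered reads cover counting error only. Genes and promoter windows came from RefSeq GRCm38.p6 tables. Starts were annotated for 17492 of 21887 protein-coding genes. One gene of the pathway list is not reported here. Of the other 105 pathway names 100 matched a protein-coding gene. Those left were Mx1, Mx2 and second symbols of genes already in the list.

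The 9 genes, the pathway list and the settings were chosen with earlier results of these data known. The genes named are the 9, every pathway gene with a peak, genes that share or lie nearest to a peak, and the 2 pathway genes closest in fold to each carrier. The pathway genes without a peak were named after their values were seen, and so were the sequences shown. No test was made. Alternatives were a 3 kb window, gene ends or starts only, any base of the peak, a −log10 q of at least 5, folds at or above the median, and other p53 distances. Python 3.11.15, SciPy 1.17.1 and pandas 2.3.3 were used.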

Additional observations from a re-analysis of the deposited data

How the results depend on the processing

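Irf1 and Irf3 were the carriers of TDG, and the other 7 genes were not, with a 3 kb window, with gene ends or annotated starts only, with any base of the peak and with a −log10 q of at least 5. When peaks under the median fold were left out, Irf3 remained and Irf1 did not, so 1 of the 9 genes carried TDG, beside 7.96% of protein-coding genes. The pathway genes with TDG fell from 20 to 13 of 100 under that setting, which keeps about the upper part of the list. They were 24 with the 3 kb window and 21 with any base of the peak, beside 15.8% and 14.9% of protein-coding genes. Gene ends only gave 17, beside 12.3%, and a −log10 q of at least 5 gave 19, beside 13.2%. Annotated starts only gave 18, beside 13.6% of the genes with an annotated start. No p53 peak lay within 1, 50 or 100 kb of any of the 9 genes, where 0.292%, 1.25% and 2.1% of protein-coding genes had one. The median fold of the 2 carriers, 5.81, was 6.25 where Irf3 alone was left. No paired analysis was possible because each list is 1 library and no test was made. At the genome-wide background the lowest summit listed had 15 reads for TDG and 23 for p53, and sites under the unstated calling threshold are not in the lists. Without the libraries of untagged and Trp53 KO cells, what part of a peak depends on the tag or on p53 was not tested.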
